A study of Arabidopsis thaliana and Setaria viridis and Zea mays with 22 samples.

Results

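Protoplasts and nuclei of the Arabidopsis thaliana root meristem were compared, library against library, for the number of genes detected at a given number of captured transcripts and for the makeup of the recovered cell populations. They were chosen as the 6 libraries that the deposited cell table marks as cells and the 3 that it marks as nuclei, which are 9 of the 22 samples of the series. The 33875 entries of that table reduced to 32790 once the cells of the library ical1, each entered 2 times, were kept once, and comprised 17687 protoplasts and 15103 nuclei. All 9 libraries came from seedlings of the strain Col-0, and the labels name no mutation and no added agent. Seedlings grew on half-strength medium with sucrose, and the tip was cut 150 µm from the end after 7 days on plates, while an age tag of 10 days also stands in the labels. Tips went either into a wall-digesting enzyme solution at room temperature, which gives protoplasts, or into cold lysis buffer, which gives nuclei, and both served as input of the 10x Chromium 3' kit. Nothing in the labels says how many plants made up a library or whether each stands for its own planting. The p-values therefore reflect the spread among these libraries, which may be technical.

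A root tip is built of concentric tissues. The columella and lateral root cap (LRC) cover the meristem, the epidermis forms hair cells (trichoblasts) and hairless cells (atrichoblasts), the ground tissue forms cortex and endodermis, and the stele holds the pericycle and the vascular tissue, all renewed by initials around the quiescent center (QC). A protoplast carries cytoplasmic and nuclear RNA and must be freed of its wall, which is known to be harder for inner than for outer tissues and to switch on stress genes. A nucleus needs no wall digestion and carries mainly young, partly unspliced transcripts. Transcripts were counted as unique molecular identifiers (UMIs), each standing for a captured RNA molecule, and a gene was detected in a cell when it had a UMI.

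The authors sorted the cells of both preparations together into 22 clusters and gave them 17 names, which are printed here as deposited, spelling included. Of these names, 14 cover 1 cluster each and 3 join several, namely 1_3_G2MphaseCells for cells near division, 11_18_Endocortex for ground tissue and 2_12_15_19_Initials_Epidermis for epidermis and its initials. The table holds no expression of single genes, so the names could not be checked against marker genes, no sequence is at hand for any member, and no statement on single genes is made. Because clusters were drawn on both preparations at once, a cluster that gathers different genes in protoplasts and nuclei would not be seen here.

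Depth differed widely between the preparations. Protoplast libraries held 1085 to 3827 cells with medians of 16709 to 28379 UMIs, and nuclei libraries held 4561 to 5396 nuclei with medians of 2320 to 2984.5 UMIs. Total UMIs were 50723576 to 138202792 per protoplast library and 16761417 to 23093915 per nuclei library. The lowest UMI count in a library was 10002 to 15068 for protoplasts and 1150 to 1211 for nuclei, so the preparations began at different minima. The lowest number of detected genes was 1001 in each nuclei library and 1669 to 2474 in the protoplast libraries. Nuclei with fewer genes are thus absent from the comparisons. With 0 cells seen, a type could still make up 0.0556% to 0.276% of a library, at 3 counts over its cells.

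Several libraries stood apart from their labels or from each other. The labels give kit version 2 for all protoplasts and version 3 for all nuclei, by which version and preparation cannot be told apart. The cell barcodes split the libraries differently. The protoplast libraries ctr3248V3, ctr4h, ctr914 and ical32hV3 shared 25, 7, 18 and 10 barcodes with the nuclei libraries, while ctr1 and ical1 shared 0 with them, and each library pair on the side of the nuclei shared 1 to 11. No shared barcode had equal UMIs and genes in both libraries. The library ctr1 held 2 sets of cells told apart by the ending of their names, of 1660 and 1632 cells, which were counted as 1 library. In ical1 the repeated entries had equal UMIs and genes, yet 47 of the 1085 cells (4.33%, Wilson 95% interval 3.27% to 5.71%) lay in another cluster on their second entry. The libraries ctr4h and ctr914 differed from the other 4 protoplast libraries in the recovery of inner tissues. Calls on relative gene detection and on shares that changed without them are named.

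At the same number of UMIs, nuclei showed more detected genes than protoplasts. Between 10000 and 20000 UMIs, which 8645 protoplasts and 787 nuclei reached, and after adjustment to 15000 UMIs, 4038 genes were detected in ctr1, 4139 in ctr3248V3, 3951 in ctr4h, 4146 in ctr914, 4031 in ical1 and 4398 in ical32hV3. Nuclei replicates 1, 2 and 3 reached 6084, 6116 and 6145 genes. Every nuclei library was above every protoplast library, and the 3 nuclei libraries lay closer together than the 6 protoplast libraries. The means were 4117 ± 156 genes (SD, n = 6) and 6115 ± 30.4 genes (SD, n = 3), a log2 difference of -0.57 (SE 0.02) for protoplasts against nuclei, or 1.49-fold more genes in nuclei. The two-sided exact permutation test over the 84 ways to divide the 9 libraries gave p = 0.0119, the smallest p these 9 libraries allow. The nuclei in this range were 3.32% to 6.67% of their libraries, at the UMI-rich end, whereas 29.4% to 60.6% of the protoplasts fell in it.

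**Figure D1:**
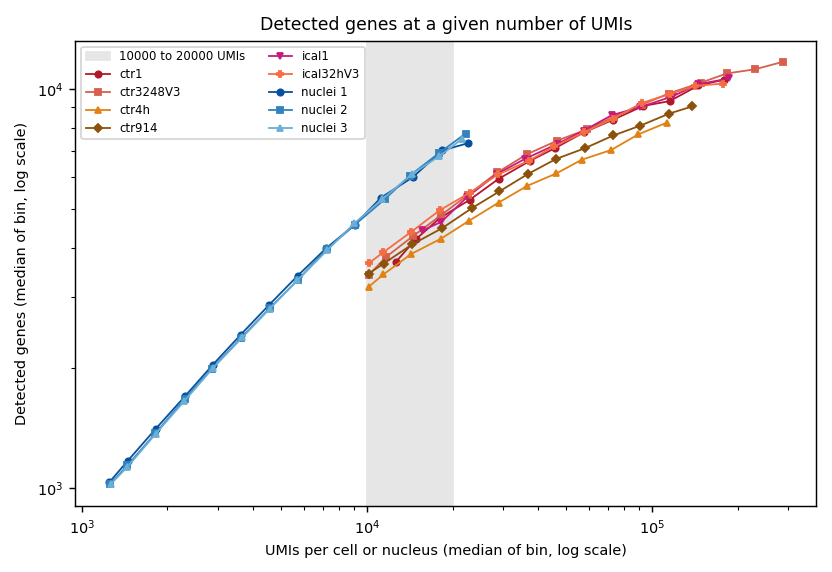
Median number of detected genes (vertical axis, log scale) against median UMIs (horizontal axis, log scale) of cells binned by UMIs, with 1 line per library and bins of at least 10 cells. The grey band marks 10000 to 20000 UMIs, where the 3 nuclei lines (blue) lie above the 6 protoplast lines.

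The gap was seen along the whole shared range of depth. Nuclei of 5000 to 10000 UMIs had medians of 3602 to 3621 genes over the 3 libraries, next to 3606.5 to 4559 genes in protoplasts of 10000 to 20000 UMIs. In the deeper class of 10000 to 20000 UMIs, nuclei had medians of 5536 to 5721 genes. From 20000 to 40000 UMIs the medians were 5165 to 6016 genes for protoplasts, below the 7234 to 7617 of nuclei. Expressed as detected genes per 100 UMIs, cells of 10000 to 20000 UMIs gave 43.1 to 43.9 in nuclei and 25.8 to 31.6 in protoplasts. The rate at which genes were gained with UMIs in that range, as the slope of log2 genes on log2 UMIs, was 0.578 ± 0.049 in protoplasts (SD, n = 6) and 0.580 ± 0.023 in nuclei (SD, n = 3). The slopes overlapped between the groups and their difference was not beyond the spread of the libraries (exact permutation test, p = 0.964). Among the 4 protoplast libraries that share barcodes with the nuclei, the difference in genes at 15000 UMIs was -0.56 on the log2 scale, and without ctr4h and ctr914 it was also -0.56. These values average all cells of a library in the range, and the mix of types differed between the preparations. The name 6_LRC made up 18.6% of such protoplasts and 1.93% of such nuclei, as means over libraries. Averaged over the 5 names with enough cells in every library, the difference was -0.50.

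The higher gene count of nuclei held in each cell type that could be tested. Of the 17 names, 14 had at least 5 cells in the UMI range in at least 2 libraries of each preparation. For 0_Young_Columella, 16_Undertermided, 21_endodermis and 9_Columella_LRC_Indertermined only 2 nuclei libraries did. These names had 38, 14, 18 and 24 nuclei in the range. All 14 were lower in protoplasts (limma with Benjamini-Hochberg adjustment, 100% of types tested called), and in none did the groups overlap. The fit shares 1 estimate of spread over the types, so the adjusted p-values of 2.01e-16 to 9.94e-11 are smaller than 9 libraries alone would give. The names 14_Columella, 6_LRC and 4_To_determined were left untested, since each had at least 5 cells in the range in only 1 nuclei library. In all, 10, 15 and 20 of their nuclei lay in the range.

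The size of the gap differed in the estimates from type to type. In the ground tissue, 20_Cortex had the largest estimate, with 4177 genes in ctr1, 3986 in ctr4h, 3926 in ctr914 and 4435 in ical32hV3 against 6551, 6365 and 6435 in nuclei replicates 1 to 3. That is 1.56-fold more genes in nuclei (log2 -0.64, SE 0.06, limma adjusted p = 2.01e-16). Its neighbour 21_endodermis, the barrier layer around the stele, had 1.50-fold more genes in nuclei (log2 -0.58, SE 0.07), and 11_18_Endocortex had 1.44-fold more (log2 -0.53, SE 0.06).

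In the stele, 17_Stele had 3681, 3967 and 4410 genes in the 3 protoplast libraries with enough cells and 6089, 6119 and 6245 in the nuclei, a 1.53-fold gap (log2 -0.62, SE 0.06). The pericycle, from which lateral roots arise, varied most among nuclei, with 5346, 6071 and 5856 genes against 3550 to 4302 in protoplasts. The lowest nuclei library was still above the highest protoplast library, and the gap was 1.47-fold (log2 -0.55, SE 0.06).

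In the epidermis, hairless cells had a gap of 1.51-fold (log2 -0.59, SE 0.06), hair cells of 1.45-fold (log2 -0.53, SE 0.06) and 2_12_15_19_Initials_Epidermis of 1.43-fold (log2 -0.51, SE 0.06). Hair cells in ctr914 had 3558 genes, the lowest of the 5 protoplast libraries tested, whose highest value was 4572.

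The smallest estimates were found in the young cap and the initials. In 7_Young_LRC, the young lateral root cap, 4587, 4635, 4078, 4416, 4637 and 4675 genes were detected in ctr1, ctr3248V3, ctr4h, ctr914, ical1 and ical32hV3, against 5732, 6146 and 6082 in the nuclei. This is 1.33-fold more in nuclei (log2 -0.41, SE 0.06, limma adjusted p = 9.94e-11). The initials and quiescent center, 8_Initials_QC, showed 6246 to 6395 genes in nuclei against 4174 to 4970 in protoplasts, a 1.38-fold gap (log2 -0.46, SE 0.06). The young columella 0_Young_Columella and 1_3_G2MphaseCells followed with 1.40-fold and 1.41-fold, and 9_Columella_LRC_Indertermined and 16_Undertermided had 1.43-fold and 1.52-fold.

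**Figure D2:**
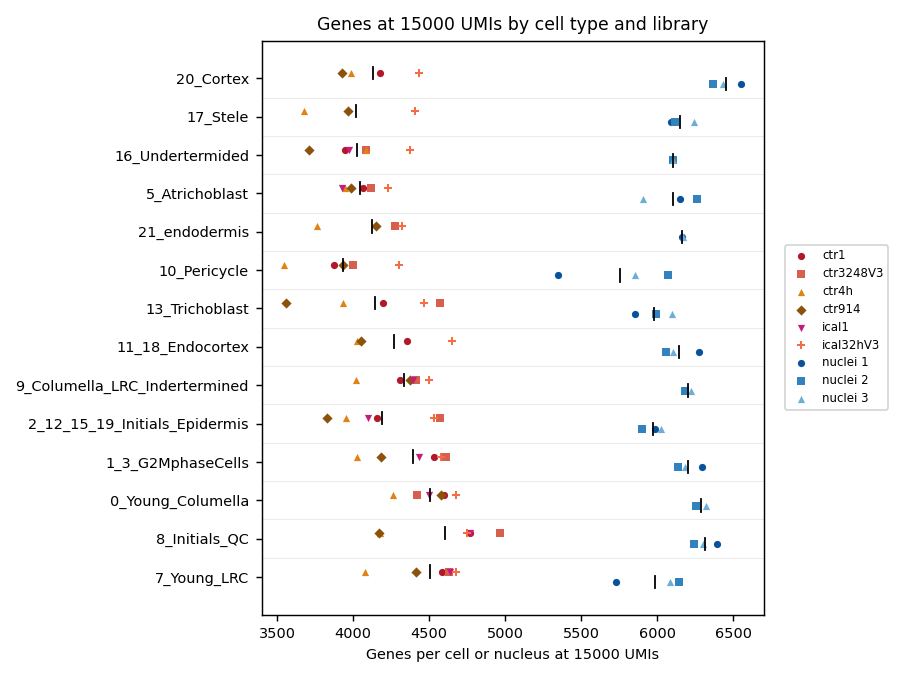
Detected genes at 15000 UMIs (horizontal axis) for the 14 testable names (vertical axis), with 1 point per library and a black bar at the mean of each preparation. Protoplast libraries range from 3550 to 4970 genes and nuclei libraries from 5346 to 6551, with no overlap within any name.

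Whether the same types are gene-rich in both preparations was asked with all cells. Within each library, log2 genes were fitted on the type and a quadratic of log2 UMIs, and the effect of a type was set against the median type of the library, so that 0 stands for a type with the usual number of genes for its UMIs. Protoplast types spread widely on this scale and nuclei types lay close to 0. The fit read each preparation at its own depth, with library medians of 16709 to 28379 UMIs in protoplasts and 2320 to 2984.5 in nuclei. Whether the narrower spread of nuclei and the calls depend on this gap in depth was not tested. Of 17 types, 3 differed between the preparations (17.6% called), all higher in protoplasts, and these were the young root cap and the initials. None was called lower in this fit.

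In 7_Young_LRC relative gene detection was 0.14, 0.11, 0.03, 0.11, 0.15 and 0.09 in ctr1, ctr3248V3, ctr4h, ctr914, ical1 and ical32hV3, and -0.01, 0.00 and -0.01 in nuclei replicates 1 to 3. All 6 protoplast libraries were above all nuclei, with the smallest excess in ctr4h. The difference was 0.11 on the log2 scale (SE 0.02, limma adjusted p = 0.0124).

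In 8_Initials_QC, which holds the stem cells of the meristem, the values were 0.16, 0.20, 0.08, 0.04, 0.17 and 0.11 in protoplasts in the same order and 0.01, 0.02 and 0.02 in nuclei. Here ctr4h and ctr914 were the lowest of the 6, and again no protoplast library reached down to the nuclei. The difference was 0.11 (SE 0.03, limma adjusted p = 0.0363). For 0_Young_Columella, the young gravity-sensing cap, the 6 values of 0.04 to 0.15 lay above the nuclei at 0.01 to 0.02, with a difference of 0.09 (SE 0.02, limma adjusted p = 0.0183). Leaving out any 1 nuclei library, or both libraries named ical, ended all 3 calls, although the estimates kept their sign in each alternative run. A straight line in log2 UMIs in place of the quadratic ended the calls for 0_Young_Columella (0.05, limma adjusted p = 0.171) and 8_Initials_QC (0.10, limma adjusted p = 0.0562) and left 7_Young_LRC at 0.07. With the 4 protoplast libraries that share barcodes with the nuclei, the same 2 calls were lost, at 0.07 and 0.09. The call for 8_Initials_QC was also lost without ctr1, ctr3248V3, ical1 or ical32hV3, at 0.10 to 0.11.

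The mature cap split the protoplast libraries. The 6_LRC cells of ctr1, ctr3248V3, ical1 and ical32hV3 lay at -0.23, -0.33, -0.22 and -0.18, meaning fewer genes than the median type at equal UMIs, while ctr4h and ctr914 lay at -0.01 and 0.04, close to the nuclei at -0.02 to -0.00. In 14_Columella the same 4 libraries lay at -0.22, -0.36, -0.19 and -0.23, and ctr4h and ctr914 at 0.03 and 0.11, with nuclei at -0.03 to -0.01. Over all 6 libraries neither type passed (6_LRC -0.15, SE 0.08, adjusted p = 0.213 and 14_Columella -0.12, SE 0.10, adjusted p = 0.411, both limma). In a fit without ctr4h and ctr914, added after these values were seen, 10 of 17 types were called, 5 in each direction. In it, 6_LRC was at -0.23 (SE 0.03, limma adjusted p = 0.000196) and 14_Columella at -0.23 (SE 0.04, limma adjusted p = 0.000565). Newly called besides these were 1_3_G2MphaseCells and 9_Columella_LRC_Indertermined on the higher side, and 16_Undertermided, 17_Stele and 21_endodermis on the lower side. Since ctr4h and ctr914 were left out for the values of the mature cap, the second fit is a description of the remaining 4.

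The remaining 12 names were not called. Among them 17_Stele had the estimate nearest to a call on the lower side, at -0.10 to -0.02 in protoplasts and 0.00 to 0.01 in nuclei, with no overlap and a limma adjusted p of 0.0797. The ground tissue and epidermis names lay within 0.04 of each other between the preparations, with 11_18_Endocortex at 0.02 in both.

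**Figure D3:**
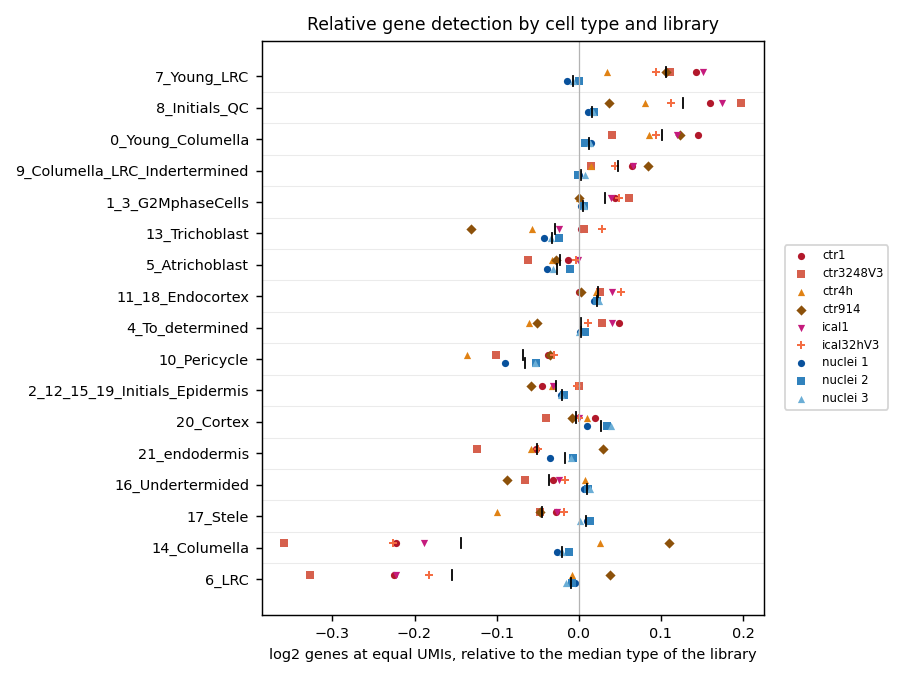
Relative gene detection (horizontal axis, log2 genes at equal UMIs minus the median type of the library) for the 17 names (vertical axis), 1 point per library, with a black bar at the mean of each preparation. Nuclei (blue) stay between -0.09 and 0.04, while protoplasts range from -0.36 to 0.20 and the mature cap names 6_LRC and 14_Columella fall apart into 4 low libraries and ctr4h and ctr914.

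The recovery of single clusters was compared next, since 3 of the names hide several clusters. Clusters of the mature root cap were more common in protoplasts, and clusters of the endocortex, a cluster of dividing cells and cluster 4, which the authors named 4_To_determined, were more common in nuclei. Of 22 clusters 8 were called (36.4%; edgeR, quasi-likelihood, Benjamini-Hochberg adjusted), 4 higher (18.2%) and 4 lower (18.2%) in protoplasts. Shares are percentages of the cells of a library, and both preparations entered with their own UMI minimum.

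Within the endocortex name both clusters were rarer in protoplasts. Cluster 11 made up 2.79%, 0.876%, 1.96%, 2.27%, 2.76% and 2.02% of the cells in ctr1, ctr3248V3, ctr4h, ctr914, ical1 and ical32hV3 and 7.87%, 6.91% and 5.58% in nuclei replicates 1 to 3. The groups did not overlap, and the share was 3.22-fold higher in nuclei (log2 -1.69, SE 0.33, edgeR adjusted p = 0.00240). Cluster 18 made up 0.851%, 0.0531%, 0.460%, 0.601%, 1.75% and 1.20% of protoplasts and 5.27%, 4.17% and 3.15% of nuclei. It was nearly absent from ctr3248V3 and was 5.34-fold more common in nuclei (log2 -2.42, SE 0.64, edgeR adjusted p = 0.0160), a call lost without nuclei replicate 1, at -2.22 and an edgeR adjusted p of 0.067, and with nuclei of at least 5000 UMIs, at -1.54 and 0.0788. It was also lost among cells of 10000 to 20000 UMIs in both preparations, at -2.22 (edgeR adjusted p = 0.0627). The call for cluster 11 was kept in all 23 alternatives, at -3.60 to -1.0 on the log2 scale.

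The clusters of dividing cells stood side by side. Cluster 1 had a share of 5.19 ± 1.01% in protoplasts (SD, n = 6) and 8.89 ± 0.295% in nuclei (SD, n = 3), with log2 -0.78 (SE 0.24, edgeR adjusted p = 0.0285). Cluster 3 had 5.63 ± 1.25% and 7.65 ± 0.121%, which did not pass (log2 -0.44, SE 0.25, edgeR adjusted p = 0.202), although all 6 protoplast libraries were below all 3 nuclei libraries in both clusters. The call for cluster 1 was lost in 9 of 23 alternatives, among them the omission of ctr1, of ical1 or of any 1 nuclei library, at -0.80 to -0.75. With protoplasts of at least 20000 UMIs it was -0.41 (edgeR adjusted p = 0.199), the smallest estimate among these 9.

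On the other side, 6_LRC, the mature lateral root cap, had 10.8%, 13.8%, 11.1%, 4.68%, 12.7% and 6.56% of the protoplasts in ctr1, ctr3248V3, ctr4h, ctr914, ical1 and ical32hV3 and 0.836%, 1.49% and 1.69% of the nuclei. Every protoplast library was above every nuclei library, with ctr914 the lowest, and the fitted ratio was 7.40 (log2 2.89, SE 0.45, edgeR adjusted p = 0.000796). The mature columella 14_Columella had 3.42% to 7.84% of protoplasts and 0.816% to 1.78% of nuclei, 4.37-fold more (log2 2.13, SE 0.38, edgeR adjusted p = 0.00143). Cells of 16_Undertermided had 5.26% to 6.65% in 4 protoplast libraries, 1.42% in ctr4h and 1.70% in ctr914, against 0.641% to 1.54% in nuclei (log2 1.84, SE 0.58, edgeR adjusted p = 0.0285). Hairless epidermis, 5_Atrichoblast, had 4.81% to 12.2% against 3.46% to 4.16% (log2 1.12, SE 0.36, edgeR adjusted p = 0.0285). The calls for 16_Undertermided and 5_Atrichoblast were lost without ctr1 or any 1 nuclei library, at 1.53 to 2.04 and 1.07 to 1.20, and that for 16_Undertermided also without ical1, ical32hV3 or both, at 1.78, 1.68 and 1.56. Without ctr4h and ctr914 the hairless epidermis was at 0.77 and no longer called (edgeR adjusted p = 0.0553). Nuclei of at least 5000 UMIs ended both calls, at 0.61 for 5_Atrichoblast (edgeR adjusted p = 0.221) and 1.60 for 16_Undertermided (edgeR adjusted p = 0.0788). So did the 4 protoplast libraries that share barcodes with the nuclei, at 1.15 and 1.62 (edgeR adjusted p = 0.097 and 0.109).

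Cluster 4, without an assigned tissue, was the most common cluster of the nuclei, with 11.5%, 10.98% and 12.5%, and made up 0.797% to 3.69% of protoplasts, a 5.60-fold gap (log2 -2.48, SE 0.39, edgeR adjusted p = 0.000796). Its nuclei were the poorest in UMIs, with medians of 1665 to 2049, and 7.43% of them reached 5000 UMIs, against 12.5% to 36.8% in the other clusters. Restricted to nuclei of at least 5000 UMIs, the difference was -0.996 and was no longer called (edgeR adjusted p = 0.0788).

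**Figure D4:**
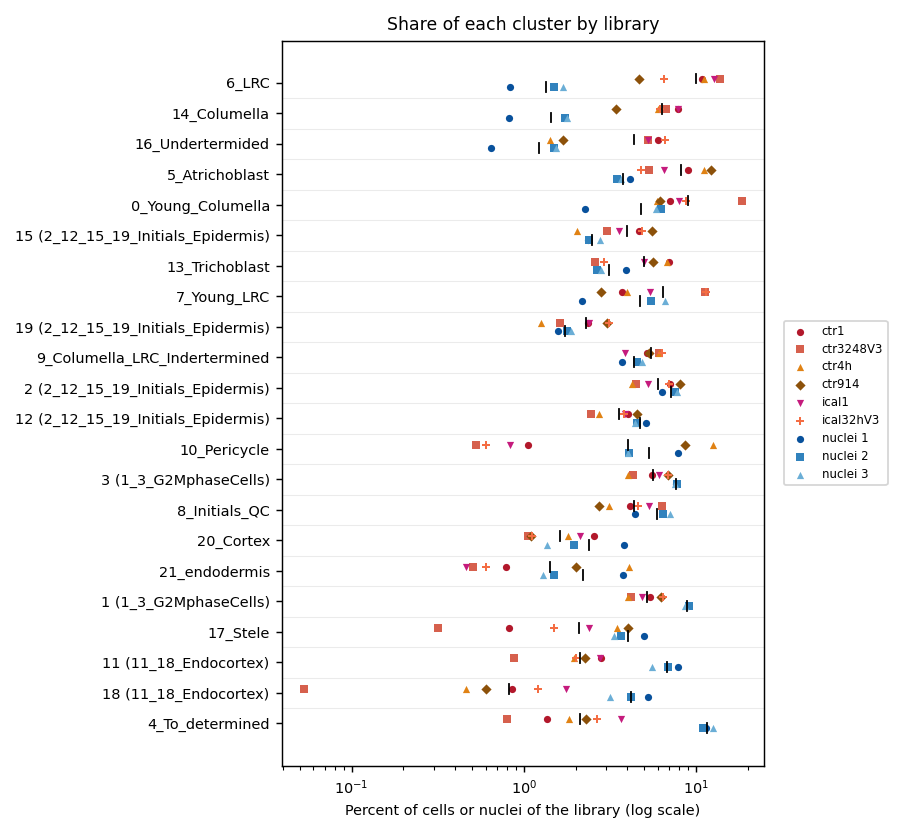
Share of each of the 22 clusters (vertical axis) in each library (horizontal axis, percent of cells or nuclei, log scale), with a black bar at the mean of each preparation. The mature cap clusters at the top have all protoplast libraries to the right of all nuclei, and the endocortex clusters and cluster 4 at the bottom have all protoplast libraries to the left.

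The inner tissues differed more among protoplast libraries than between preparations. 10_Pericycle made up 12.5% of ctr4h and 8.60% of ctr914, 0.531% to 1.06% of the other 4 protoplast libraries, and 4.04% to 7.81% of nuclei, so the protoplast libraries lay on both sides of the nuclei (edgeR adjusted p = 0.701). For 21_endodermis the shares were 4.10% and 2.01% in ctr4h and ctr914, 0.461% to 0.790% in the other 4 and 1.30% to 3.79% in nuclei. For 17_Stele they were 3.47% and 4.05%, then 0.319% to 2.40%, and 3.35% to 5.01% in nuclei. Without ctr4h and ctr914, a choice made after seeing these shares, the log2 difference was -2.83 for the pericycle, -1.86 for the endodermis and -1.77 for the stele, as values for the other 4 libraries. Each was called in that setting (edgeR adjusted p = 0.000195, 0.00504 and 0.0209), which describes those 4 libraries only.

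Protoplast types differed in UMI content, and some calls changed when only protoplasts of at least 20000 UMIs were set against all nuclei. Whether depth was the cause was not tested. Among protoplasts, 85.2% of 6_LRC, 85.9% of 7_Young_LRC, 80.1% of 0_Young_Columella and 71.4% of 14_Columella had fewer than 20000 UMIs, against 13.9% of 2_12_15_19_Initials_Epidermis and 14.9% of 13_Trichoblast, as means over the 6 libraries. With protoplasts of at least 20000 UMIs only, 6_LRC was at 1.07 (edgeR adjusted p = 0.262) and 14_Columella at 1.11 (edgeR adjusted p = 0.226), both no longer called. In that setting 8 of 22 clusters were called, 5 higher and 3 lower in protoplasts. Newly called higher were 13_Trichoblast and the epidermal clusters 15 and 19, at 1.38, 1.49 and 1.13 (edgeR adjusted p = 0.0170, 0.00706 and 0.0170).

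A comparison of cells with 10000 to 20000 UMIs in both preparations was added after the data were seen. UMIs were bounded in it and not matched, with library medians of 12515 to 17271 in protoplasts and 12341 to 13570 in nuclei. In it 13 of 22 clusters were called, 5 higher and 8 lower in protoplasts. Among such cells the mature cap had the same direction as in all cells, with 6_LRC at 3.25 and 14_Columella at 2.98. The endocortex cluster 11 was 12.1-fold more common among such nuclei (log2 -3.60, edgeR adjusted p = 0.00128). Cluster 3 of the dividing cells had 3.39 ± 1.17% of such protoplasts (SD, n = 6) and 15.8 ± 2.09% of such nuclei (SD, n = 3), 4.62-fold more in nuclei (log2 -2.21, edgeR adjusted p = 0.00128). Cluster 4 had nearly the same share, 2.23 ± 1.25% and 2.41 ± 0.888% (log2 -0.18, SE 0.66, edgeR adjusted p = 0.795), and 5_Atrichoblast turned to the other direction at -0.62 without a call (edgeR adjusted p = 0.246). The call for 16_Undertermided was lost too, at 1.10 and the same adjusted p. Called lower in protoplasts were 13_Trichoblast and clusters 15 and 19, at -1.81, -2.23 and -1.80 (edgeR adjusted p = 0.0143, 0.0143 and 0.0409). That is opposite to their calls with protoplasts of at least 20000 UMIs. These shares rest on 787 nuclei, of which 10 were 14_Columella and 15 were 6_LRC.

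Inside the joined names, the makeup also differed between preparations. Of 8 clusters, 6 were called (75%), 3 higher (37.5%) and 3 lower (37.5%) in protoplasts, by two-sided exact permutation tests over 84 splits with Benjamini-Hochberg adjustment over the 8. The shares within a name sum to 100%, so the clusters of a name are not independent, and those of a pair carry the same information.

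Among dividing cells, cluster 1 made up 49.3%, 49.2%, 50.0%, 47.5%, 44.5% and 48.1% of the name in ctr1, ctr3248V3, ctr4h, ctr914, ical1 and ical32hV3, and 53.9%, 54.1% and 53.2% in nuclei replicates 1 to 3, with cluster 3 as the remainder. No protoplast library reached the nuclei. The means were 48.1 ± 1.97% (SD, n = 6) and 53.7 ± 0.458% (SD, n = 3), a log2 odds difference of -0.32 (SE 0.05, exact permutation, adjusted p = 0.0238).

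Among the epidermal clusters, 15 and 19 took a larger part of the name in protoplasts and 2 and 12 a smaller part. Cluster 15 made up 25.8%, 26.1%, 20.0%, 26.2%, 23.8% and 25.9% of the name in protoplasts and 15.3%, 14.7% and 16.4% in nuclei, without overlap (log2 odds 0.83, SE 0.10, exact permutation, adjusted p = 0.0238). Cluster 19 made up 12.2% to 16.6% and 10.2% to 11.1% (0.47, SE 0.09, exact permutation, adjusted p = 0.0238). Cluster 2, the largest of the name in every library, made up 34.8% to 41.2% in protoplasts and 41.2% to 46.3% in nuclei (-0.38, SE 0.11, exact permutation, adjusted p = 0.0317). Cluster 12 made up 20.3% to 26.5% and 26.4% to 33.3% (-0.47, SE 0.17, exact permutation, adjusted p = 0.0317). In clusters 2 and 12 the highest protoplast library, ctr4h, slightly passed the lowest nuclei library. Without any 1 nuclei library no cluster of a joined name was called, the smallest p then being 0.0357, while each of the 6 estimates kept its sign. Clusters 2 and 12 were also lost without ctr1, ctr3248V3, ctr914 or ical32hV3, at -0.39 to -0.37 and -0.46 to -0.43, and cluster 19 without ctr3248V3 or ctr914, at 0.48 and 0.47. Without ctr4h and ctr914 the call for cluster 12 was lost, at -0.51 (exact permutation, adjusted p = 0.0762). With the 4 protoplast libraries that share barcodes with the nuclei all 6 calls were lost, each at an exact permutation adjusted p of 0.0857.

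The endocortex name divided differently among protoplast libraries. Cluster 11 made up 76.7%, 94.3%, 81.0% and 79.1% of the name in ctr1, ctr3248V3, ctr4h and ctr914, and 61.2% and 62.6% in ical1 and ical32hV3, next to 59.9%, 62.4% and 63.9% in nuclei. The libraries named ical lay within the range of the nuclei and the other 4 lay above it. Over all 6 the difference did not pass (log2 odds 1.08, SE 0.46, exact permutation p = 0.143). Without both libraries named ical it was 1.64 (SE 0.48, exact permutation, adjusted p = 0.0457). In that setting the calls for clusters 2, 12 and 15 of the epidermal name were lost, at -0.32, -0.47 and 0.82 (exact permutation, adjusted p = 0.0653, 0.0857 and 0.0653). The labels do not explain the library names. The ctr3248V3 value rests on 35 cells of the name.

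**Figure D5:**
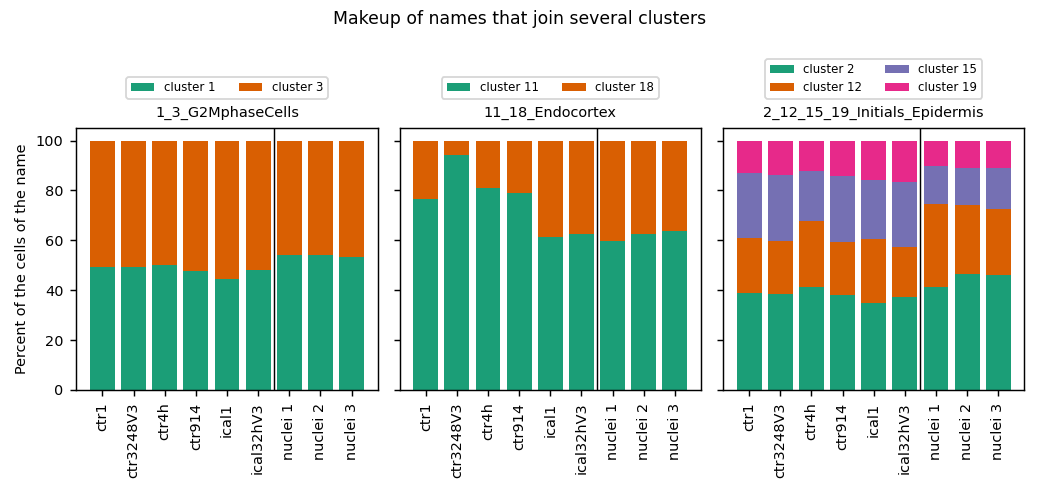
Makeup of the 3 joined names in each library, as percent of the cells of the name (vertical axis), with a vertical line between protoplast and nuclei libraries. Cluster 15 takes 20.0% to 26.2% of the epidermal name in protoplasts and 14.7% to 16.4% in nuclei.

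These differences in makeup changed with the UMI range of the cells. Among cells of 10000 to 20000 UMIs in both preparations, cluster 1 made up 53.1%, 48.5%, 60.7%, 50.8%, 47.1% and 48.2% of the dividing name in the 6 protoplast libraries and 24.4%, 35.7% and 38.9% in nuclei. The groups again did not overlap, in the opposite direction to that of all cells (log2 odds 1.10, SE 0.31, exact permutation, adjusted p = 0.0317). Cluster 15 then made up 8.20% to 19.4% of the epidermal name in protoplasts and 21.6% to 27.9% in nuclei, also reversed (-0.95, SE 0.23, exact permutation, adjusted p = 0.0317). Clusters 2, 12 and 19 turned sign without a call, at 0.22, 1.05 and -0.55. So did cluster 11 of the endocortex name, at -0.99 (exact permutation, adjusted p = 0.405), with no cells of that name in ical1. Among protoplasts of at least 20000 UMIs set against all nuclei, the 6 calls of all cells were kept with their signs.

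The UMI content of the clusters inside a name was compared as well. Relative to the median cell of its name, none of the 8 clusters was called (0%, exact permutation with adjustment over the 8), and 1 had an unadjusted p under 0.05. In nuclei, cluster 3 held more UMIs than cluster 1 in each library, with medians of 2945, 3920 and 4009 against 2333.5, 2788 and 3356. In protoplasts the medians of cluster 3 were 39564, 26655, 31515, 38829, 50620 and 24504 against 32641, 24645, 18338, 38897, 46269 and 24521 in cluster 1, so that ctr914 and ical32hV3 had nearly equal values and ctr4h the widest gap. Cluster 18 was poorer in UMIs than cluster 11 in the 8 libraries with at least 5 cells of both, with 2011 to 2802 against 2477 to 3883 in nuclei and 19662 to 30010 against 28968 to 69090.5 in protoplasts. Cluster 19 was the one under the unadjusted threshold, with -0.38 (SE 0.14) for protoplasts against nuclei and an exact permutation p of 0.0476, adjusted p = 0.238. In genes instead of UMIs, cluster 12 was relatively higher in protoplasts at 0.18 and cluster 19 relatively lower at -0.27, both with an exact permutation adjusted p of 0.0476.

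Ratios between related names do not move with the rest of a library and were compared for 7 pairs. None was called by the exact permutation test (0%), with 3 under an unadjusted p of 0.05. A single ratio at the smallest possible p has an adjusted p of 0.0833 over 7 tests. Mature to young lateral root cap, 6_LRC to 7_Young_LRC, was 2.88, 1.22, 2.79, 1.67, 2.33 and 0.576 in ctr1, ctr3248V3, ctr4h, ctr914, ical1 and ical32hV3 and 0.387, 0.273 and 0.256 in nuclei replicates 1 to 3. All protoplast libraries were above all nuclei, with ical32hV3 the nearest (log2 2.48, SE 0.41, exact permutation p = 0.0119, adjusted p = 0.0833). Mature to young columella, 14_Columella to 0_Young_Columella, was 0.362 to 1.10 in protoplasts and 0.277 to 0.365 in nuclei, with ctr3248V3 inside the range of the nuclei (log2 1.23, SE 0.28, exact permutation p = 0.0357, adjusted p = 0.104).

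Hair to hairless epidermis, 13_Trichoblast to 5_Atrichoblast, was 0.768, 0.486, 0.614, 0.462, 0.762 and 0.607 in protoplasts and 0.949, 0.767 and 0.772 in nuclei (log2 -0.45, SE 0.16, exact permutation p = 0.0476, adjusted p = 0.104). Endocortex to cortex and endodermis together was 0.413 to 1.87 and 1.73 to 3.26 (log2 -1.44, SE 0.46, exact permutation p = 0.0595, adjusted p = 0.104). With limma over the 7 ratios, which pools their spread, both cap ratios were called higher and the endocortex ratio lower in protoplasts.

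The other 3 ratios overlapped. Cortex to endodermis was 0.442 and 0.548 in ctr4h and ctr914 and 1.83 to 4.27 in the other 4 protoplast libraries, on both sides of the nuclei at 1.01 to 1.31. Pericycle to stele was 0.358 and 0.406 in ical1 and ical32hV3 and 1.29 to 3.59 in the other 4, with nuclei at 1.11 to 1.56. Dividing cells to initials, 1_3_G2MphaseCells to 8_Initials_QC, was 1.34 to 4.82 in protoplasts and 2.29 to 3.74 in nuclei (log2 -0.17, SE 0.32, exact permutation p = 0.679).

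The evenness of recovery, as the effective number of types from the entropy of the 17 shares, was 12.9, 11.3, 14.2, 12.5, 13.6 and 12.5 in ctr1, ctr3248V3, ctr4h, ctr914, ical1 and ical32hV3 and 12.2, 12.6 and 12.6 in nuclei. The nuclei lay inside the range of the protoplasts, and the means of 12.8 ± 1.01 (SD, n = 6) and 12.4 ± 0.223 (SD, n = 3) did not differ beyond the spread (exact permutation p = 0.560). The most common name was 2_12_15_19_Initials_Epidermis in 4 protoplast libraries, 0_Young_Columella in ctr3248V3 and 10_Pericycle in ctr4h, and it was 1_3_G2MphaseCells or 2_12_15_19_Initials_Epidermis in nuclei.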

How the data were processed

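Single-cell 3' libraries of Arabidopsis root tips were analysed from the deposited cell table, which gives for each cell the counts of UMIs and of detected genes made by the authors, without normalization. The submitters' processing notes name TAIR10 as the build, with Cell Ranger 5.0.1 and Seurat 4.0 as tools, and per the file headers cells were clustered at resolution 0.6. Cell filters, the treatment of doublets and whether intronic reads were counted were not given in the sources used here, and no cell was removed here except repeated entries of ical1. Protoplast libraries have names without a replicate number of the labels, and were assigned to their group from the preparation marked for each cell. The grass table was not used.

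The library was the replicate. Genes at matched UMIs used cells of 10000 to 20000 UMIs moved to 15000 UMIs with a common slope (at least 5 cells per library and type). Relative gene detection needed at least 10 cells per library and type, and missing libraries were left out of the fit. Cells per cluster were tested with edgeR 4.0.16 (quasi-likelihood, total cells as library size), per-type values with limma 3.58.1 (robust), and single values by two-sided exact permutation over libraries, with 0.5 added to cell numbers before ratios and odds. DESeq2 1.42.0 was an alternative. P-values were Benjamini-Hochberg adjusted within each comparison, with a threshold of 0.05. Intervals and limits cover counting error only. The edgeR test of shares and the limma tests of per-type values were run on simulated data with the same spread for every feature and both preparations. The outcome of the simulation is not given here. The simulation did not cover the exact permutation tests or a spread that differs between the preparations. The members, lists, pairs and tests were chosen with earlier results of these data known. All 17 names and 22 clusters are accounted for, and values per library are printed or plotted for features called in any test, for clusters of joined names and for the 7 ratios.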

Additional observations from a re-analysis of the deposited data

Results flagged for a closer look

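In 3 of 81 groups of 6 protoplast libraries tested, a single library lay far from the other 5, where chance marks about 5% of groups. Young columella cells, cluster 0, made up 18.5% of ctr3248V3, and 5.94% to 8.69% of the other 5. Relative gene detection of 17_Stele was -0.10 in ctr4h, below the -0.05 to -0.02 of the others. Cluster 3 of the dividing cells held relatively more UMIs in ctr4h, 0.46 above the median cell of its name on the log2 scale, with -0.00 to 0.14 in the others.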

How the results depend on the processing

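Genes at matched UMIs were fewer in protoplasts under every alternative run. The reference was 15000 UMIs, except for the range of 15000 to 30000 UMIs, where it was 20000. The types called lower were 9 with a range of 15000 to 30000 UMIs and 9 with at least 10 cells, where fewer types could be tested, and 10 to 14 with 1 library left out. Relative gene detection gave 0 to 6 calls with 1 library left out (6 without ctr4h and 0 without any 1 nuclei library), 1 with barcodes of the nuclei list, 0 without both libraries named ical, 1 with a straight line and 6 with a spread for each preparation. In each of the runs with 6 calls, 4 were higher and 2 lower in protoplasts. Without ctr4h and ctr914 relative gene detection gave 10. Cluster shares gave 4 to 9 calls with 1 library left out, 5 with barcodes of the nuclei list, 5 with nuclei of at least 5000 UMIs, 11 with DESeq2 and 13 among cells of 10000 to 20000 UMIs in both preparations, where 5_Atrichoblast reversed to -0.62. Shares within joined names gave 0 to 6 calls with 1 library left out, 0 with barcodes of the nuclei list and 3 among cells of 10000 to 20000 UMIs. Without a nuclei library the smallest p is 0.0357. Among cells of 10000 to 20000 UMIs clusters 1, 2, 3, 12, 15 and 19 reversed to 1.10, 0.22, -1.10, 1.05, -0.95 and -0.55. Clusters 11 and 18, not called in all cells, turned to -0.99 and 0.99. Cluster position in its name gave 2 calls in genes, and the ratios gave 3 with limma. The effective number of types, 0.40 higher in protoplasts, reversed to -1.97 with protoplasts of at least 20000 UMIs, -0.95 over 22 clusters and -0.74 among cells of 10000 to 20000 UMIs. The slope, at -0.0018, ran from -0.014 to 0.010 with 1 library left out and reversed to 0.0089 without the libraries named ical, 0.0035 and 0.00044 with 1 set of ctr1, 0.0026 with the second entries of ical1, 0.018 without ctr4h and ctr914 and 0.088 from 15000 to 30000 UMIs. The causes were not tested. The alternatives on sets of ctr1, second entries, ctr4h with ctr914 and the shared UMI range were chosen after seeing the data. No paired analysis was possible because the protoplast columns carry no replicate numbers. Few nuclei reach 10000 UMIs, which limits comparisons in a shared UMI range.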
